A study of Mus musculus with 14 samples.

Results

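The 9 genes described here, Syk, Card9, Bcl10, Malt1, Plcg2, Prkcd, Vav1, Vav3 and Ptpn6, encode proteins that carry or restrain the signal of Dectin-1, the receptor encoded by Clec7a. They were chosen by symbol, for their known place in that pathway, with earlier results of these data known, and all 9 were found among the 55335 genes in the files. Of the 9, Malt1 alone passed the test in microglia for the SOD1 transgene both with and without Clec7a. Over all genes tested, 17.9% rose and 11.2% fell in both of these comparisons. With Clec7a present it averaged 35.2 ± 8.80 CPM without the transgene and 227 ± 45.7 CPM with it (SD, n = 3 libraries each). CPM are UMI counts scaled to 1000000 per library, and these values were scaled further by edgeR's TMM factors. On unscaled CPM the means were 42.7 ± 11.1 and 201 ± 31.8. No difference tied to the loss of Clec7a passed the threshold for any of the 9 genes. Few genes of any kind did in microglia: 0.018% of all genes tested with the transgene and 0.0241% without it.

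Dectin-1 is a lectin receptor of myeloid cells that binds beta-glucans, and in the central nervous system it is found on microglia, where its transcript is a known part of the disease-associated programme. Its phosphorylated tail docks the kinase Syk. Syk activates phospholipase C gamma-2 (Plcg2) and the guanine nucleotide exchange factors Vav1 and Vav3, protein kinase C delta (Prkcd) phosphorylates Card9, and Card9 gathers Bcl10 and the paracaspase Malt1 into a complex that turns on NF-kB. The phosphatase SHP-1, encoded by Ptpn6, restrains Syk-dependent signalling.

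The study profiled all cell types of whole mouse spinal cords by single-cell RNA sequencing with 10x Genomics chemistry, in 14 libraries from animals aged P115-120 days. The labels give 4 groups. The nTg group (3 libraries) carried no transgene. The group called SOD1 here (3 libraries) was of strain B6SJL-Tg(SOD1*G93A)1Gur/J, which carries a mutant human SOD1 transgene and develops a motor neuron disease. The Clec7aKO group (4 libraries) was of strain B6.129S6-Clec7atm1Gdb/J, in which Clec7a is disrupted in every cell, and the SOD1_Clec7aKO group (4 libraries) combined both and is labelled SOD1G93A/Clec7a KO. The Clec7a allele was made in 129 stem cells, so genes near it on chromosome 6 can also carry 129 sequence in both knockout groups. The strain names also differ in background (B6SJL and B6.129S6), and the nTg label names none. Background differences elsewhere in the genome cannot be told apart from the transgene or the loss of Clec7a. The labels do not say whether each library is 1 animal, so the p-values below measure the spread between these libraries.

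The libraries held 28819852 to 141204910 UMIs (unique molecular identifiers, counted once per captured molecule). After filtering, 89225 of 108892 barcodes were kept, and no 2 libraries shared more than 0.474% of the smaller library's barcodes. Clec7a checked the labels: over all barcodes it had 755 to 1767 UMIs per library in nTg, 57449 to 101134 in SOD1, 33 to 110 in Clec7aKO and 74 to 240 in SOD1_Clec7aKO. Cells were clustered and named from marker genes, which gave 51638 microglia-like cells in 11 clusters (1006 to 7511 per library); the classes are rebuilt here and may differ from the study's own. The animals' sex was not balanced between groups, as read from Xist over all barcodes (log2 of unscaled CPM + 1). Xist was 10.2, 0.529 and 10.5 in the nTg libraries and 0.0654, 0.108 and 0.151 in the SOD1 libraries. In Clec7aKO it was 0.184, 2.38, 10.5 and 0.422, and in SOD1_Clec7aKO 0.201, 0.0598, 0.0870 and 9.14. SOD1 against nTg thus set libraries low in Xist against a group where only replicate 2 was low. A fit with Xist as a covariate is reported with the alternatives.

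On the mouse genome build GRCm38 (GENCODE vM21 annotation), the 9 protein-coding genes lie on 8 chromosomes. Syk spans chromosome 13 from 52583173 to 52648792, Prkcd chromosome 14 from 30595354 to 30626210, and Card9 chromosome 2 from 26352176 to 26360918. Bcl10 lies on chromosome 3 from 145922804 to 145934356, on the same chromosome as Vav3 (109340653 to 109685698), and Malt1 on chromosome 18 from 65430938 to 65479067. Plcg2 spans chromosome 8 from 117498291 to 117635142 and Vav1 chromosome 17 from 57279100 to 57328031. Ptpn6 (chromosome 6, 124720707 to 124738714) is the only one on the chromosome of Clec7a, 4.72 Mb from it. Card9, Plcg2 and Ptpn6 overlap annotated genes on the other strand (Gm13562, Gm27361 and Gm20531), and the sources used here do not say whether counting used strand.

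Most of the 9 transcripts came from microglia. Microglia-like cells held a mean of 97.8% ± 0.750 (SD over 14 libraries) of the Vav1 UMIs of a library, 97.5% ± 0.949 of Card9, 97.2% ± 1.05 of Ptpn6, 96.5% ± 1.82 of Syk, 95.4% ± 2.23 of Plcg2 and 92.2% ± 4.55 of Prkcd. Bcl10 and Malt1 were spread more widely, with 77.4% ± 12.5 and 70.5% ± 25.4 of their UMIs in microglia, and endothelial cells were their next largest source at 9.01% ± 5.47 and 10.1% ± 9.73. Vav3 was the exception, with 11.6% ± 11.2 of its UMIs in microglia, 37.8% ± 24.0 in astrocytes and 17.3% ± 10.3 in oligodendrocyte precursors. These shares also follow how many cells of each class a library held, and most cells kept were microglia-like.

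Levels per class are CPM of the summed UMIs of a library's cells of that class, in libraries with at least 20 such cells. The classes come from clusters of all genes, so differences between them are a description with no test, and neighbouring classes are called apart where their means differ by more than their summed SDs.

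The proximal kinase Syk averaged 92.5 ± 29.9 CPM in border-associated macrophages and 84.8 ± 21.0 CPM in microglia, which were not apart from each other. T and NK cells followed, apart from microglia, at 30.4 ± 19.0 CPM, and ependymal cells were lowest at 0.983 ± 1.19 CPM. Prkcd, the kinase that phosphorylates Card9, had 211 ± 58.3 CPM in microglia, 167 ± 71.3 in border-associated macrophages and 68.0 ± 26.4 in astrocytes, with a gap between the last pair. A further gap separated endothelial cells at 20.0 ± 4.72 CPM from oligodendrocyte precursors at 4.16 ± 2.89 CPM.

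Within the Card9 complex the 3 genes had different class patterns. Card9 itself was at 22.7 ± 10.5 CPM in microglia and 15.5 ± 10.6 in border-associated macrophages, and at 0.389 ± 0.350 CPM in endothelial cells; no neighbouring classes were apart. Bcl10 fell off gradually, from 170.3 ± 34.7 CPM in border-associated macrophages and 167 ± 46.3 in microglia through 113 ± 27.7 in T and NK cells to 81.2 ± 9.28 in endothelial cells and 33.1 ± 3.10 in ependymal cells, again with no neighbours apart. Malt1 was highest in T and NK cells, at 344 ± 113 CPM, apart from border-associated macrophages (109 ± 54.3) and microglia (101 ± 72.5); in endothelial cells it averaged 29.3 ± 4.87 CPM. These means cover different groups, since no nTg library had 20 T and NK cells. By group, on unscaled CPM, Malt1 averaged 470 ± 136 in SOD1, 299 ± 63.8 in Clec7aKO and 283 ± 29.1 in SOD1_Clec7aKO T and NK cells, beside 201 ± 31.8, 35.0 ± 6.16 and 134 ± 36.9 in microglia, and 42.7 ± 11.1 in nTg microglia.

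RNA released from other cells adds a low background in droplet data, and the level of microglial markers in other classes is given beside the 9 genes as a measure of it. The median of 12 microglial markers stood at 1.84% of its microglial level in endothelial cells, 1.58% in oligodendrocyte precursors and 1.65% in ependymal cells. Bcl10 stood at 48.5%, 35.3% and 19.8% of its microglial level in the same classes and Malt1 at 29.1%, 21.6% and 11.3%. Syk, Card9, Vav1 and Ptpn6 in endothelial cells were between 1.66% and 2.50% of their microglial levels, close to the marker background. In T and NK cells the markers stood at 20.4%, beside Card9 at 17.3%, Prkcd at 32.0%, Syk at 35.9% and Vav1 at 58.6%, and in border-associated macrophages they stood at 30.7%. In astrocytes the markers stood at 10.4%, beside Syk at 12.7%, Vav1 at 10.3% and Ptpn6 at 11.6%.

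The downstream exchange factors and phospholipase again split by class. Plcg2, which releases calcium and diacylglycerol, had 87.8 ± 13.9 CPM in microglia, apart from 48.3 ± 16.3 in border-associated macrophages. Vav1 had 139 ± 27.3 CPM in microglia, 89.2 ± 23.3 in border-associated macrophages and 81.6 ± 32.8 in T and NK cells, and dropped to 14.4 ± 16.1 CPM in astrocytes, apart from T and NK cells. Its paralog Vav3 had another pattern, with 0.272 ± 0.171 CPM in microglia and 32.1 ± 11.6 in border-associated macrophages, 29.8 ± 11.9 in T and NK cells, 26.6 ± 14.7 in astrocytes and 10.5 ± 4.40 in oligodendrocyte precursors. The inhibitor Ptpn6 had 223 ± 18.8 CPM in microglia, 187 ± 49.1 in border-associated macrophages and 128 ± 37.1 in T and NK cells, apart from astrocytes at 25.8 ± 27.8 CPM. Neutrophils reached 20 cells in only 2 libraries, where Syk stood at 295 ± 29.0 CPM, and no library had 20 B cells.

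**Figure D1:**
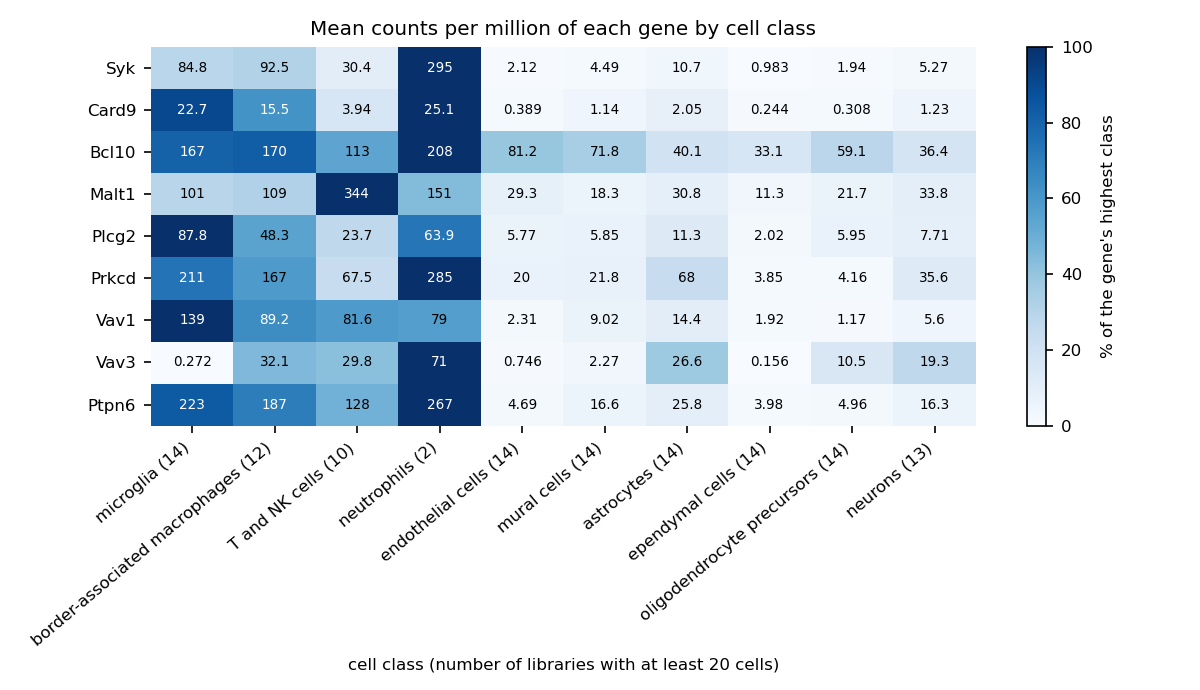
Mean CPM of each of the 9 genes (rows) in 10 cell classes (columns, with the number of libraries that had at least 20 cells); the printed value is the mean over libraries and the colour its percentage of that gene's highest class. Apart from neutrophils (2 libraries), Syk, Card9, Plcg2, Prkcd, Vav1 and Ptpn6 are highest in microglia and border-associated macrophages, Bcl10 and Malt1 are at 11.3 CPM or more in each class, and Vav3 is near 0 in microglia (0.272 CPM).

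The paralogs Vav1 and Vav3 differed in their class patterns, and the bases just upstream of their first annotated starts are shown for comparison. They are from RefSeq's promoter table for GRCm38.p6, cover 250 bases on the plus strand at chr17:57278850-57279099 for Vav1 and chr3:109340433-109340682 for Vav3, and capitals mark the letters GAGGAA or their reverse complement TTCCTC, a core that the myeloid factor PU.1 is known to bind.
Vav1: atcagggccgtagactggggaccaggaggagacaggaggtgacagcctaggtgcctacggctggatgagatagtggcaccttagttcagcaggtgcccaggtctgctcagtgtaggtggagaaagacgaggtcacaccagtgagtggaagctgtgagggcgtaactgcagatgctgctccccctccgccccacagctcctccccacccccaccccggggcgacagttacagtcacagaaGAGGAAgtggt
Vav3: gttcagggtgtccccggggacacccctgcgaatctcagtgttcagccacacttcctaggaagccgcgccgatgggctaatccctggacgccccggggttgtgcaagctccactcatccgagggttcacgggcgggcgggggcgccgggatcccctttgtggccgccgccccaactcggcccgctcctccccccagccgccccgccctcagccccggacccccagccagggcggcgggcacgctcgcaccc
The Vav1 window holds the letters 1 time, near its 3′ end, and the Vav3 window does not hold them. Over all 32851 gene starts in that table, 23.3% hold them on either strand within the same length; 8 of the 9 genes matched the table, with 12 starts, of which 2 held the letters (Vav1 and 1 start of Syk). The letters were chosen after the class pattern was seen, and a match is a description of this window only.

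In microglia, levels were compared with UMI counts summed per library over all microglia-like cells and scaled by TMM factors, and tested with edgeR's quasi-likelihood test over 16630 genes with Benjamini-Hochberg adjustment (threshold 0.05). The 95% intervals below were built from the SE with a normal quantile. They are narrower than intervals based on the test's own degrees of freedom. TMM holds the bulk of genes level. On unscaled CPM the median of all tested genes shifted by -0.42 (log2) in SOD1 against nTg and by -0.49 in SOD1_Clec7aKO against Clec7aKO, so each change below is relative to that shift. A change summed over all microglia can come from another mix of microglial states or from another level within a state, and the clusters are taken up after the tests.

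The transgene comparison with Clec7a present, SOD1 against nTg, called 1 of the 9 genes, Malt1, where 32.7% of all genes tested were called. Malt1, the protease of the Card9 complex, measured 39.7, 25.1 and 40.9 CPM in the 3 nTg libraries and 182, 273 and 226 CPM in the 3 SOD1 libraries. Every SOD1 library was above every nTg library. The change was 2.69 ± 0.24 (log2 fold change ± SE), or 6.45-fold (95% interval 4.64 to 8.97), with an adjusted p of 2.2e-06 in edgeR's quasi-likelihood test. On unscaled CPM it was 2.23.

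Its partners in the complex were lower in SOD1 without passing the threshold. Bcl10, the adaptor that joins Card9 to Malt1, measured 194, 189 and 169 CPM in nTg and 144, 159 and 141 in SOD1. The groups did not overlap, as for 53.6% of all genes tested, and the change of -0.32 ± 0.15 had an unadjusted p of 0.0465 and an adjusted p of 0.108 in edgeR. Card9 measured 20.9, 22.1 and 19.5 CPM in nTg and 14.9, 13.9 and 12.1 in SOD1. These groups did not overlap either, but the change of -0.61 ± 0.37 had an adjusted p of 0.214 in edgeR. Without the 3 knockout libraries numbered 13 and above, described further on, both were called lower by edgeR's quasi-likelihood test, Card9 at -0.60 (adjusted p = 0.00345) and Bcl10 at -0.31 (adjusted p = 0.0419).

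Upstream of the complex, Syk measured 90.7, 76.7 and 85.9 CPM in nTg and 81.4, 87.6 and 83.3 in SOD1. The groups overlapped fully, and the fold change was 0.996 with a 95% interval of 0.785 to 1.26. Prkcd measured 171, 212 and 227 CPM in nTg and 136, 216 and 191 in SOD1, overlapping, at a fold change of 0.892 (0.596 to 1.33). Neither gene was shown to change, and the interval for Prkcd is the wider one.

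On the phospholipase and exchange factor arm, Plcg2 measured 86.8, 73.2 and 83.1 CPM in nTg and 92.9, 82.0 and 81.3 in SOD1, at a fold change of 1.05 (95% interval 0.859 to 1.29). Vav1 measured 110.3, 128 and 119.9 CPM in nTg and 155, 119 and 109.7 in SOD1, at 1.07 (0.803 to 1.44). Neither separated the groups. Vav3 rested on 1 to 10 UMIs per library in nTg and 19 to 41 in SOD1, with 0.163 ± 0.126 and 0.403 ± 0.108 CPM, and did not pass (adjusted p = 0.249 in edgeR).

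The inhibitor Ptpn6 measured 172, 213 and 193 CPM in nTg and 239, 233 and 227 in SOD1. The SOD1 libraries were all above the nTg libraries, at 0.27 ± 0.14 (log2) and an adjusted p of 0.160 in edgeR; on unscaled CPM the direction turned, at -0.17.

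The transgene comparison without Clec7a, SOD1_Clec7aKO against Clec7aKO, called 2 of the 9 genes, Malt1 and Ptpn6, both higher, where 46.5% of all genes tested were called. Malt1 measured 33.6, 31.7, 28.7 and 25.5 CPM in the Clec7aKO libraries and 166, 221, 142 and 128 in the SOD1_Clec7aKO libraries. The groups lay far apart, at 2.46 ± 0.21 (log2) or 5.49-fold (95% interval 4.13 to 7.29), with an adjusted p of 6.7e-07 in edgeR's quasi-likelihood test. Ptpn6 measured 213, 177, 189 and 210.0 CPM in Clec7aKO and 227, 299.8, 291 and 277 in SOD1_Clec7aKO. These groups also did not overlap, which held for 36.5% of all genes tested, and the rise of 0.47 ± 0.12 had an adjusted p of 0.00666 in edgeR; it is a rise against the shift of all genes, since on unscaled CPM the direction turned, with 229 ± 20.3 CPM in Clec7aKO and 222 ± 18.5 in SOD1_Clec7aKO, a log2 ratio of -0.05.

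The other 7 genes did not pass in that comparison. Card9 measured 26.4, 21.6, 21.2 and 46.8 CPM in Clec7aKO and 14.7, 12.2, 29.1 and 36.1 in SOD1_Clec7aKO, where 1 library of the first group and 2 of the second stood well above the rest. Bcl10 measured 148, 181, 172 and 187 CPM against 133, 131, 162 and 172, with overlap and an adjusted p of 0.205 in edgeR; it was called lower (-0.36, adjusted p = 0.0282 in edgeR) in the 5 clusters whose leading genes included microglial markers (4, 6, 7, 12 and 22). Syk, Plcg2, Prkcd and Vav1 had fold changes of 0.925, 1.09, 0.998 and 1.13, with 95% intervals that all held 1. Vav1 was called higher (0.39, adjusted p = 0.0487 in edgeR) only when Clec7aKO replicate 4 was left out.

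**Figure D2:**
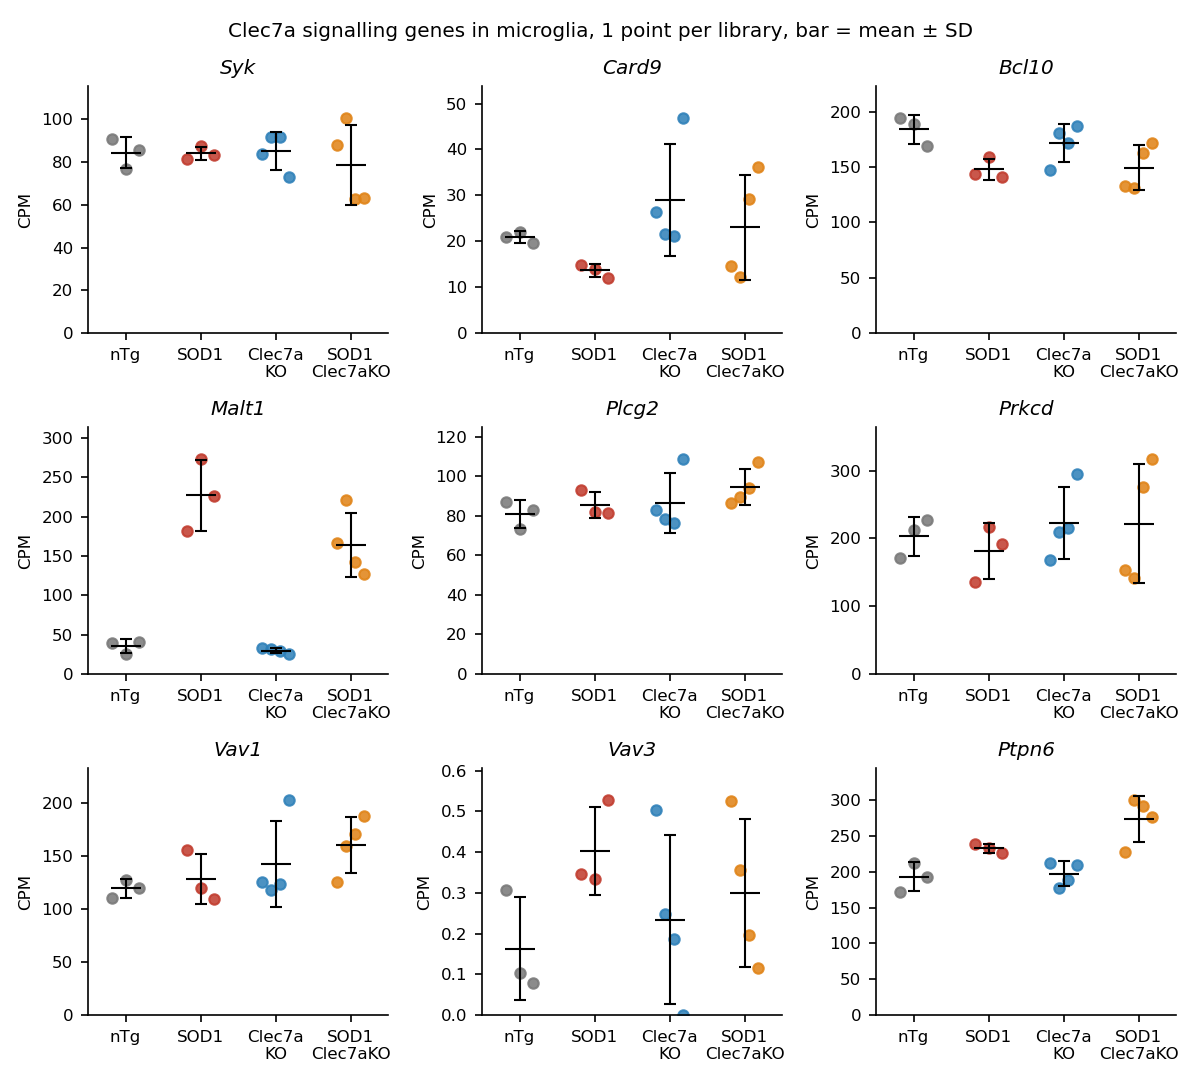
TMM-scaled CPM of each gene in microglia, 1 point per library in each of the 4 groups, with the mean and SD as bars; each panel has its own axis from 0. Malt1 separates both transgenic groups (128 to 273 CPM) from both groups without the transgene (25.1 to 40.9 CPM), and Card9, Prkcd and Vav1 have 1 or 2 high libraries in the knockout groups.

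The loss of Clec7a was compared in cords with and without the transgene. With the transgene, SOD1_Clec7aKO against SOD1, edgeR called 0 of the 9 genes, DESeq2 called 0, and 2 had an unadjusted p under 0.05; over all genes 0.018% were called and 11.4% had an unadjusted p under 0.05. The 2 were Malt1 at -0.47 ± 0.21 (fold 0.724, 95% interval 0.543 to 0.964, adjusted p = 0.435) and Card9 at 0.75 ± 0.34 (fold 1.68, 1.05 to 2.68, adjusted p = 0.435), both in edgeR. Their libraries overlapped between the groups. Without the libraries numbered 13 and above the Card9 difference was -0.02 and that of Malt1 -0.23.

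The other genes did not pass in transgenic cords either. For Syk the fold change was 0.936 (95% interval 0.750 to 1.17), for Bcl10 1.01 (0.841 to 1.22), for Plcg2 1.11 (0.914 to 1.34), for Ptpn6 1.18 (0.978 to 1.41), for Prkcd 1.22 (0.837 to 1.79) and for Vav1 1.25 (0.953 to 1.65). For Vav3, at 0.806 (0.381 to 1.71), the interval is too wide to be informative. These intervals hold for all 14 libraries: without the libraries numbered 13 and above the direction turned for Prkcd (-0.29, log2), Bcl10 (-0.16), Syk (0.17) and Vav3 (0.14), none of them called, and the Prkcd value then lies outside its interval above.

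Without the transgene, Clec7aKO against nTg, edgeR called 0 of the 9 genes, DESeq2 called 0 and none had an unadjusted p under 0.05; over all genes 0.0241% were called and 2.68% had an unadjusted p under 0.05. The fold changes were 0.850 for Malt1 (95% interval 0.635 to 1.14), 0.933 for Bcl10 (0.775 to 1.12), 1.39 for Card9 (0.866 to 2.21), 1.01 for Syk (0.807 to 1.26) and 1.02 for Ptpn6 (0.852 to 1.23). Ptpn6 is the gene for which linked 129 sequence cannot be told apart from the loss of Clec7a, and its libraries overlapped in both knockout comparisons.

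The difference between the 2 knockout comparisons was tested as an interaction. It called 0 of the 9 genes in edgeR and in DESeq2, none had an unadjusted p under 0.05, and 0 of 16630 genes passed with 353 (2.12%) at an unadjusted p under 0.05. For Malt1 the interaction was -0.23 ± 0.30, so the rise with the transgene was not shown to differ between cords with and without Clec7a. SOD1 against nTg and SOD1_Clec7aKO against SOD1 share the SOD1 libraries, and each transgene comparison shares a group with each knockout comparison.

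**Figure D3:**
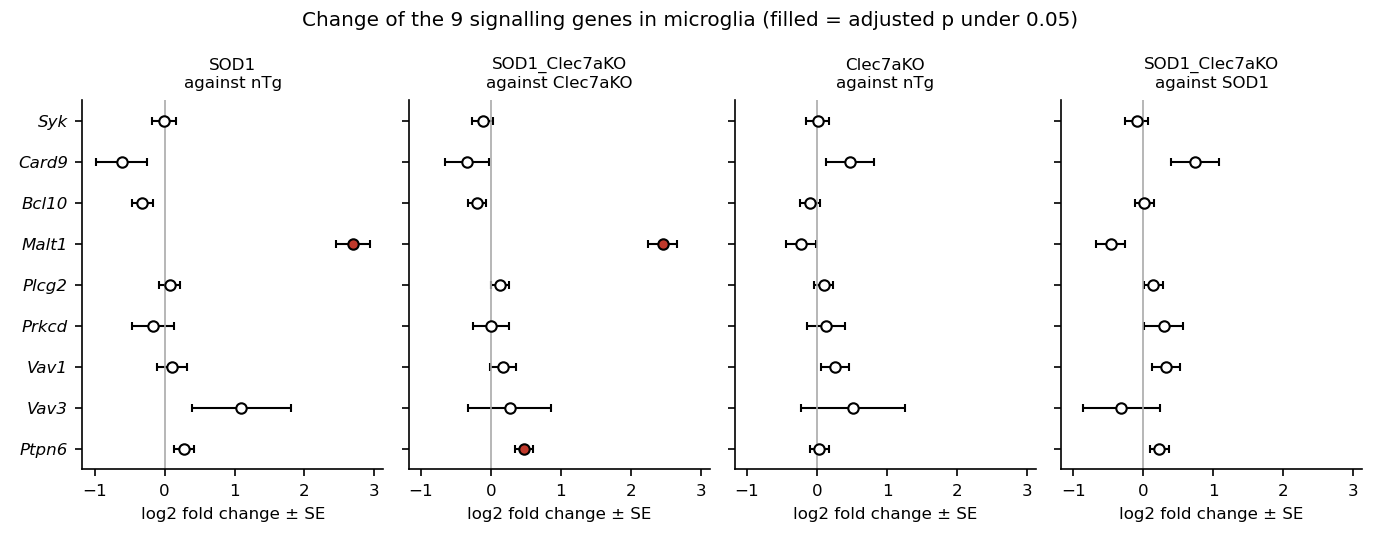
Log2 fold change with its SE for each gene in microglia in the 4 comparisons, from edgeR; filled points passed an adjusted p of 0.05. Malt1 is at 2.69 and 2.46 in the transgene comparisons, Ptpn6 is filled in SOD1_Clec7aKO against Clec7aKO only (0.47), and no point is filled in either knockout comparison.

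Microglial states were then described through the clusters, which were named by their leading genes and which differ by construction, so no test is given between them. Levels by cluster are unscaled CPM, unlike the TMM-scaled levels of the tests. The shift of all genes within a cluster was not measured, so differences between groups within a cluster may include it. Clusters 6 and 7 were led by homeostatic genes such as P2ry12 and Tmem119 and together held most nTg microglia: 46.1% ± 39.1 and 39.1% ± 35.8 (SD over libraries), against 0.0446% and 4.92% of SOD1 microglia. Xist and Tsix led cluster 6. Xist was high in nTg replicates 1 and 3 (10.2 and 10.5) and low in every SOD1 library (0.0654 to 0.151). Sex and the transgene therefore cannot be told apart in the share of cluster 6 between SOD1 and nTg. Cluster 6 held 16.8% ± 33.1 of Clec7aKO and 0.697% ± 1.38 of SOD1_Clec7aKO microglia. Xist was high in Clec7aKO replicate 3 (10.5) and SOD1_Clec7aKO replicate 4 (9.14). The part of sex in these shares was not tested. Cluster 12 was led by C1q genes, 14 by Lpl and Postn, 13 by Gpnmb, 24 by Gpnmb with Mmp12 and Cxcl1, 19 by Ifnb1 and Il12b, 5 by interferon-induced genes, 22 by cell division genes and 28 by MHC class II genes; cluster 4 was shallow and led by hemoglobin genes.

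Malt1 varied widely between these clusters. It was lowest in clusters 4, 7 and 6, at 17.7 ± 11.4, 34.0 ± 9.17 and 45.7 ± 21.8 CPM over libraries, and highest in cluster 24 at 343 ± 107 CPM, with 207 ± 55.5 in cluster 14, 186 ± 48.7 in cluster 28 and 178 ± 66.0 in cluster 19. Cluster 24 held 0.0577% of nTg and 10.2% of SOD1 microglia, and cluster 14 held 0.289% and 13.7%.

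Within single clusters the groups overlapped in some and not in others. In homeostatic cluster 7 it averaged 38.8 ± 9.50 CPM in nTg, 42.9 ± 8.03 in SOD1, 30.1 ± 5.67 in Clec7aKO and 27.8 ± 7.46 in SOD1_Clec7aKO, so the groups overlapped. In cluster 12 the means were 65.1, 78.7, 37.6 and 69.3 CPM in the same order. In the interferon cluster 5 it was 29.7 CPM in the 1 nTg library with enough cells and 126 ± 7.60 CPM in SOD1. In cluster 24, where only transgenic libraries reached 20 cells, it was 412 ± 51.4 CPM in SOD1 and 290.5 ± 112 in SOD1_Clec7aKO. The test was also run on the 5 clusters with microglial markers among their leading genes, summed together. Malt1 was called there, at 1.54 in SOD1 against nTg (adjusted p = 9.2e-04 in edgeR). In SOD1_Clec7aKO against Clec7aKO it was called at 1.51 (adjusted p = 1.9e-04 in edgeR). The mix of these 5 clusters also differed between groups. Cluster 12 held 1.79% of nTg and 25.4% of SOD1 microglia, and 3.25% of Clec7aKO and 28.8% of SOD1_Clec7aKO microglia. This fit therefore cannot separate the mix of states from the level within a state.

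Card9 and Bcl10 ran the other way across clusters. Card9 was highest in clusters 6 and 7, at 34.1 ± 12.4 and 28.4 ± 9.52 CPM, and lowest in cluster 24 at 9.79 ± 4.24 CPM. Within cluster 7 it averaged 27.2 ± 2.67 CPM in nTg and 17.7 ± 1.95 in SOD1, and 34.1 ± 10.8 in Clec7aKO and 31.6 ± 9.78 in SOD1_Clec7aKO, and the last pair overlapped. Bcl10 was at 215 ± 21.1 CPM in cluster 6, 189 ± 31.1 in cluster 7 and 99.4 ± 6.04 in cluster 13. Within cluster 7 Bcl10 averaged 221 ± 18.6 CPM in nTg and 182 ± 9.78 in SOD1, and 206 ± 20.8 in Clec7aKO and 154 ± 18.6 in SOD1_Clec7aKO; within cluster 12 it averaged 207 and 142, and 189 and 126 CPM.

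The other genes are given by their lowest and highest cluster. Syk ran from 48.3 ± 15.5 CPM in the shallow cluster 4 to 95.3 ± 21.2 in cluster 7, Prkcd from 100.1 ± 28.0 in cluster 4 to 270.4 ± 36.8 in cluster 6, Plcg2 from 65.5 ± 4.58 in cluster 24 to 109 ± 11.7 in cluster 6, and Vav1 from 99.0 ± 14.9 in cluster 13 to 168 ± 29.8 in cluster 7. Ptpn6 ran from 181 ± 41.5 CPM in cluster 4 to 246 ± 21.1 in cluster 7. Vav3 was highest in clusters 22 and 13, at 2.52 ± 6.42 and 1.02 ± 0.622 CPM, still far under its level in border-associated macrophages. Summed over all microglia, the 8 border-associated macrophage markers went from between 1.30 and 1.86 CPM in nTg to between 38.1 and 84.0 CPM in SOD1, with 6 of the 8 higher; their part in the results was not tested.

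**Figure D4:**
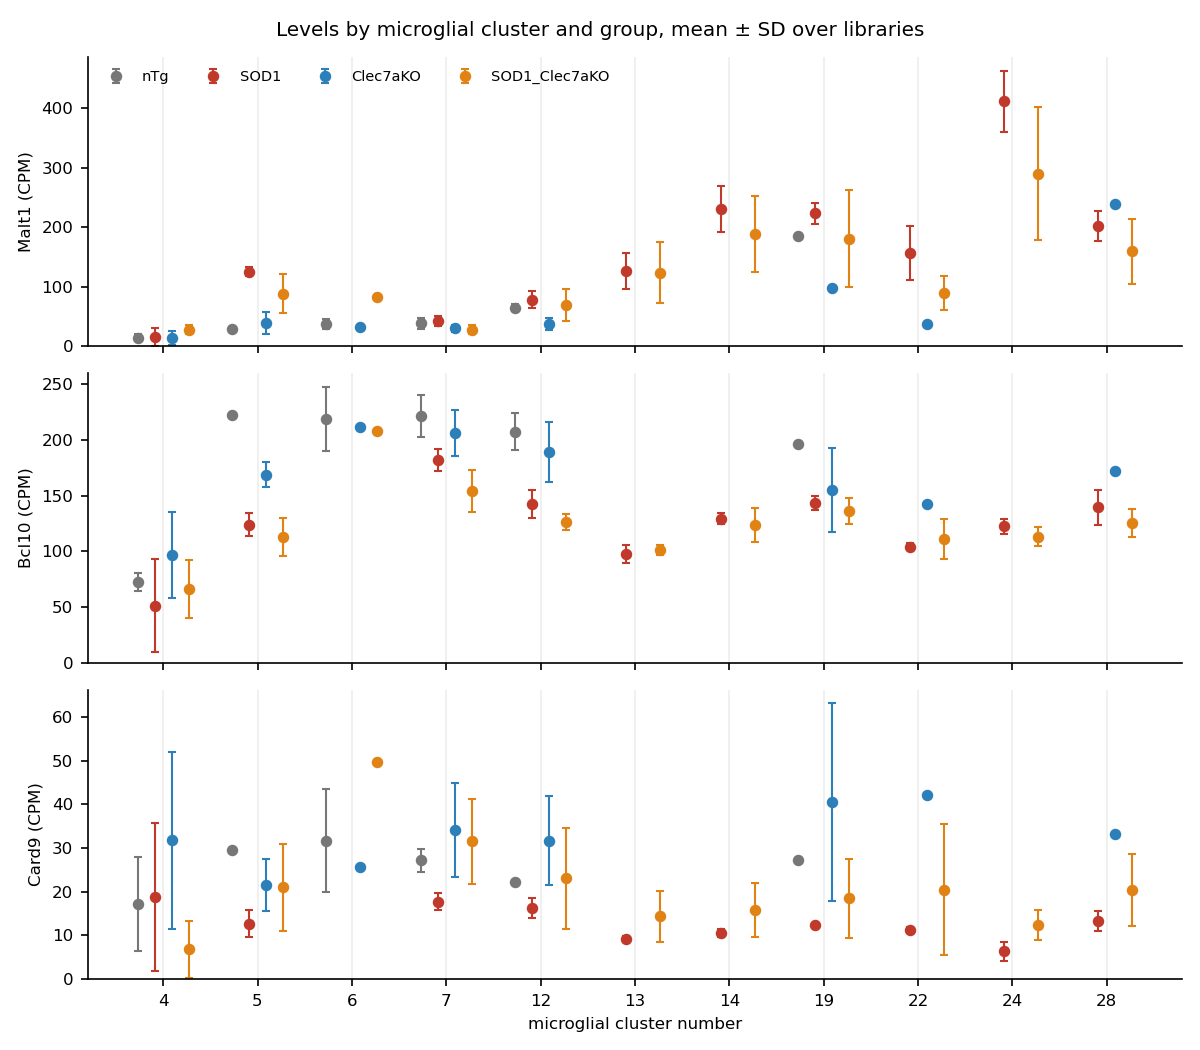
Unscaled CPM of Malt1 (top), Bcl10 (middle) and Card9 (bottom) by microglial cluster and group, as mean ± SD over libraries with at least 20 cells in the cluster. A point with no bar is 1 library. Malt1 is low in the 4 groups in clusters 4 and 7 and reaches 412 CPM in cluster 24, and the means of Bcl10 and Card9 are lower in SOD1 than in nTg within cluster 7 (no test).

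The share of cells with at least 1 UMI gave the same picture for Malt1. With every cell thinned to 2000 UMIs, Malt1 was seen in 6.58% ± 1.19 of nTg microglia (SD, n = 3), 22.5% ± 2.65 in SOD1, 6.31% ± 0.915 in Clec7aKO and 18.3% ± 3.09 in SOD1_Clec7aKO (n = 4 each for the last pair). Without thinning the shares were 23.6%, 57.9%, 19.2% and 49.4%. In ependymal cells, where the Malt1 level was the lowest of the classes ranked, the thinned share was 1.64% ± 0.747 over the 14 libraries. Bcl10 went from 34.0% ± 2.15 in nTg to 23.1% ± 0.759 in SOD1 and from 30.5% ± 1.95 in Clec7aKO to 22.3% ± 1.52 in SOD1_Clec7aKO (unthinned 72.8%, 77.2%, 67.0% and 67.9%), with 6.96% ± 2.42 in ependymal cells. Genes not called were also seen less in SOD1 than in nTg: Prkcd (27.06% and 37.90%), Vav1 (20.25% and 26.03%) and Plcg2 (13.97% and 17.07%). Of the 9 genes only Malt1 and Vav3 had a higher thinned share in SOD1. Thinned shares are not scaled by TMM factors and may include the shift of all genes, so the Bcl10 fall is not read as particular to it. Median depth per library was 5291 to 21809 UMIs in microglia and 4575.5 to 12072 in ependymal cells, and thinning left out 519, 422, 500 and 343 shallower microglia in the 4 groups in the order above.

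The thinned shares of 3 further genes are given beside their levels. Syk was seen in 18.3%, 13.4%, 17.8% and 11.9% of microglia in nTg, SOD1, Clec7aKO and SOD1_Clec7aKO, Card9 in 4.98%, 2.62%, 6.56% and 3.47%, and Ptpn6 in 37.1%, 33.9%, 35.5% and 35.2%. The order of the 4 groups in these shares is not that of the TMM-scaled levels for any of the 3, and no order is read from them.

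The libraries whose names are numbered 13, 15 and 16 were compared with the others of their groups. They are SOD1_Clec7aKO replicates 3 and 4 and Clec7aKO replicate 4; nTg and SOD1 have none, and the labels do not say what the number marks. Within both knockout groups these libraries were above the others, without overlap, for Card9, Bcl10, Plcg2, Prkcd and Vav1, and below them for Syk, Malt1 and Vav3; 43.1% of all genes tested were apart the same way in both groups. Prkcd averaged 295.9 CPM in the 2 SOD1_Clec7aKO libraries and 148 CPM in the other 2, and 295.5 against 198 CPM in Clec7aKO. Card9 averaged 32.6 against 13.4 CPM in SOD1_Clec7aKO. Without the 3 libraries Card9 was called lower in SOD1_Clec7aKO against Clec7aKO (-0.77, adjusted p = 0.0016 in edgeR), Malt1 was at 2.64 there and 2.70 in SOD1 against nTg, and none of the 9 genes was called in either knockout comparison.

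Outside microglia the same fit was run in endothelial cells, ependymal cells and astrocytes for SOD1 against nTg. In endothelial cells 1 of the 7 genes tested was called, where 1.23% of all genes were: Ptpn6 rose from 1.06, 0.785 and 0.609 CPM in nTg to 8.80, 7.51 and 3.98 in SOD1 (2.97 ± 0.45, adjusted p = 0.00231 in edgeR), at 2.53 to 3.22 over the 22 alternatives. With Xist as a covariate it was at 2.53 with an adjusted p of 0.0626 in edgeR, and 0 of the 7 passed. Bcl10 (80.9 ± 6.86 and 83.8 ± 7.10 CPM) and Malt1 (29.4 ± 3.83 and 32.4 ± 4.08 CPM) did not pass, with 95% intervals of 0.824 to 1.30 and 0.846 to 1.44 for the fold change. In ependymal cells edgeR called 0 of the 6 genes tested, where 0.975% of all genes were called; DESeq2 also called 0, and 3 of the 6 (Ptpn6, Prkcd and Vav1) had an unadjusted p under 0.05, as did 7.32% of all genes.

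In astrocytes Vav3 fell. It measured 42.0, 40.5 and 45.0 CPM in nTg and 8.91, 15.3 and 17.2 in SOD1, so every SOD1 library was under every nTg library, and 50.8% of all genes tested did not overlap there. The change was -1.58 ± 0.29 (log2), with an adjusted p of 0.000663 in edgeR. In the knockout groups it measured 35.9, 39.2, 47.0 and 27.3 CPM in Clec7aKO and 11.4, 4.34, 14.6 and 25.6 in SOD1_Clec7aKO. These again did not overlap (26.3% of all genes), and edgeR called the change, where 33.6% of all genes were called. The SOD1_Clec7aKO values rest on only 29, 5, 9 and 4 Vav3 UMIs, so the narrow gap between 25.6 and 27.3 CPM is imprecise. In SOD1 against nTg 7 of the 8 genes tested were called in astrocytes, where 36.1% of all genes were. The other 6, all higher, were Bcl10 (0.89), Malt1 (1.18), Plcg2 (2.57), Vav1 (3.56), Syk (3.67) and Ptpn6 (3.80). In the nTg astrocytes Syk rested on 3 to 5 UMIs per library, Vav1 on 2 to 14, Ptpn6 on 4 to 18 and Plcg2 on 8 to 12. With Xist as a covariate 3 were called, Vav3 (-1.32), Ptpn6 (2.77) and Syk (3.10). The others kept their direction there, at 0.83 for Bcl10, 1.08 for Malt1, 2.06 for Plcg2 and 2.53 for Vav1, with adjusted p of 0.0799, 0.175, 0.0862 and 0.0711 in edgeR. Malt1 kept its call in 14 of 22 alternatives (adjusted p up to 0.265 in edgeR), and lost it without any 1 of the nTg libraries, SOD1 replicate 1 or SOD1 replicate 2, with values of 0.74 to 1.77 when 1 library was left out. Without SOD1 replicate 1 Bcl10 was no longer called (0.63), Plcg2 was at 1.85, Vav1 at 2.32, Ptpn6 at 2.97 and Syk at 3.02. Without SOD1 replicate 3 Malt1 was at 1.77, Plcg2 at 3.24, Vav1 at 4.25, Syk at 4.39 and Ptpn6 at 4.43, and without nTg replicate 2 Ptpn6 was at 4.68 and Vav1 at 4.83. Vav3 was called in all 22 alternatives, at -1.79 to -1.32.

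Microglial markers moved with those 6 genes. The 12 microglial markers summed to 259 to 599 CPM in the nTg astrocytes and 1412 to 14046 CPM in the SOD1 astrocytes, with 12 of 12 higher. In endothelial cells they summed to 149 CPM on average in nTg and 1273 in SOD1 (12 of 12 higher), and in ependymal cells to 303 and 1355 (11 of 12 higher). In astrocytes other markers moved with the Vav3 fall as well. Those of oligodendrocyte precursors, a class with Vav3, summed to 427 to 667 CPM in nTg and 218 to 249 in SOD1 (2 of 7 higher), and those of oligodendrocytes to 314 to 671 and 178 to 198 (0 of 7 higher). Ependymal markers summed to 67.9 to 79.3 CPM in nTg and 165 to 260 in SOD1 (4 of 7 higher), and mural markers to 69.4 to 121 and 163 to 355 (6 of 8 higher). The part of these markers in the results was not tested.

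The wider pathway was followed in microglia through a list of 82 genes in 9 groups, of which 79 were expressed enough to test. In SOD1 against nTg 17 rose and 15 fell, with a median of 0.01 (log2) beside 0.01 over all genes tested; 19.6% and 13.1% of all genes rose and fell. In SOD1_Clec7aKO against Clec7aKO 18 rose and 20 fell, with a median of -0.08 beside 0.00, where 25.5% and 21.0% of all genes rose and fell. In both of these comparisons 17.9% of all genes rose and 11.2% fell, the background for the counts per group in both that follow. Group counts given for 1 comparison stand beside that comparison's own shares, 19.6% and 13.1% or 25.5% and 21.0%. The 32 calls in SOD1 against nTg became 21 without nTg replicate 1, 21 without SOD1 replicate 2, 21 with Xist as a covariate and 20 in the 5 clusters with microglial markers among their leading genes. In both knockout comparisons edgeR and DESeq2 called 0 of the 79 (10 with Clec7a lost in transgenic cords and 3 in the others had an unadjusted p under 0.05), and 0.018% and 0.0241% of all genes were called. All calls named are from edgeR's quasi-likelihood test, and values are log2 changes in SOD1 against nTg and then in SOD1_Clec7aKO against Clec7aKO.

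Near the receptor, 2 of 7 kinases rose in both comparisons: Fgr, a Src-family kinase of myeloid cells (2.45 and 2.86), and Fyn (1.11 and 1.06). Src, named after its values were seen, fell in the second (-0.52). The more abundant family member Lyn (-0.35 and -0.29) did not pass. Among 6 adaptors 3 rose in both, led by Fcer1g, the shared signalling chain of Fc and lectin receptors (1.04 and 1.39), while Blnk (0.08 and 0.07) and Pik3ap1 (0.29 and 0.05) did not. Of 8 genes listed as brakes and phosphatases, none rose, and 1 fell in the first comparison and 2 in the second. The abundant phosphatase Ptprc (0.32 and 0.16) and the ligase Cbl (-0.08 and -0.46) did not pass.

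On the arms that follow Plcg2 and Vav, 4 of 8 genes of the PI3 kinase and small GTPase group rose in both comparisons and 2 fell, with Hras up (1.16 and 1.29) and the regulatory subunit Pik3r1 down (-0.65 and -1.09). Akt1 (0.19 and 0.41) did not pass. Of 8 calcium and NFAT genes none rose, and 1 and then 2 fell; the calcium channel Itpr2 was at -0.05 and 0.07.

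Among 19 partners, kinases and NF-kB genes downstream of Card9, 0 rose and 6 fell in SOD1 against nTg, and 1 rose and 6 fell in SOD1_Clec7aKO against Clec7aKO. The group's most abundant genes did not pass: Nfkbia, the inhibitor of NF-kB, was at 0.31 and 0.24, and the subunit Rel at -0.30 and -0.37. Of 5 proteins known to be cut by Malt1, 1 rose in both, N4bp1 (1.00 and 0.72), whereas Tnfaip3 (0.69 and 0.05) and Zc3h12a (0.20 and 0.18) did not pass.

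Target genes held the largest changes of the list. Of 11 tested, 5 rose in both comparisons: Il12b (4.30 and 4.22) and Il23a (4.27 and 3.76), which encode interleukin 12 and 23 subunits, the chemokine Cxcl2 (3.00 and 3.07), the cyclooxygenase Ptgs2 (2.99 and 2.26) and Il1b (2.93 and 3.05). Egr1, an immediate early gene, fell (-1.13 and -1.33), and Tnf (1.08 and 1.01) and Nr4a1 (0.15 and 0.09) did not pass. Il12b varied widely within SOD1, at 10.7, 83.2 and 37.7 CPM, all above the nTg libraries at 0.983, 5.58 and 0.

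Paralogs of the 9 genes formed the last group. Of 7 tested 2 rose and 4 fell in both comparisons: Prkca, a paralog of Prkcd, fell by 1.74 and 2.15 on the log2 scale, from 28.2 to 8.43 CPM in SOD1 against nTg. Card10 did not pass, at -0.06 and -0.75.

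**Figure D5:**
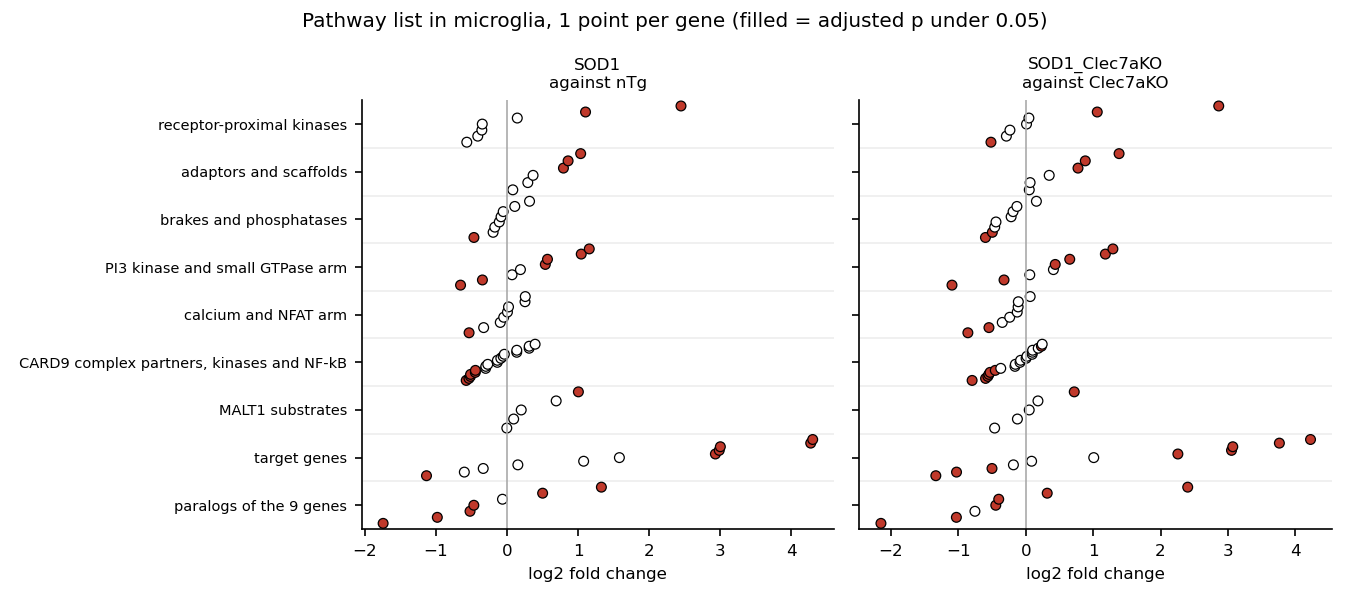
Log2 fold change of each of the 79 tested pathway genes in microglia, 1 point per gene, by group of the list, in SOD1 against nTg (left) and SOD1_Clec7aKO against Clec7aKO (right); filled points passed an adjusted p of 0.05. The target genes reach 4.30 and 4.22, and the Card9 partner group has medians of -0.14 and -0.08.

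The genes whose levels ran most like each of the 9 across the 29 clusters of all cells were named as a description, by Pearson's r of log2(CPM + 1), with no p; the clusters share libraries and genes. Syk ran most like Ncf4 (r = 0.985), Card9 like C5ar2 (0.967), Plcg2 like Btk (0.973), Vav1 like Nckap1l (0.995), Ptpn6 like Cd53 (0.996) and Prkcd like Casp4 (0.927). Bcl10 ran most like Baz1a (0.954) and Malt1 like Cd69 (0.942). For Vav3 the first gene was Emb, at 0.807.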

How the data were processed

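Single cells of whole spinal cord were profiled in 14 libraries. The deposited matrices hold UMI counts per gene and barcode, not normalized; the matrix header gives software version 3.0.2, and the submitters' processing notes name Cell Ranger, Seurat, DESeq2 and mm10. No column belonged to another sample (0). The strand setting is not given in the sources used here.

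Barcodes with fewer than 500 genes or 1000 UMIs (7127) or over 15% mitochondrial UMIs (4963) were removed, then predicted doublets (7577, at 0.8% per 1000 barcodes, scored against simulated doublets), leaving 89225. Cells were clustered in scanpy 1.11.5 (anndata 0.12.19, scikit-learn 1.9.0, igraph 0.11.9, scipy 1.17.1) from 2000 variable genes, 30 principal components and 15 neighbours, by Leiden at resolution 1.0. Clusters were named from marker lists. One cluster was split at resolution 0.5 and the limit on a second class's markers (log2 of 5) was set after seeing the data. For each class, the UMIs of a library were added up, and edgeR 4.0.16 (R 4.3.3, limma 3.58.1) fitted all 14 libraries together with 1 term per group, after filterByExpr and TMM scaling, with quasi-likelihood tests, Benjamini-Hochberg adjustment over all genes and a threshold of 0.05. DESeq2 1.42.0 was an alternative. The edgeR step was tested on simulated counts.

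Summed microglial depth was 10749423 to 98590838 UMIs per library, endothelial 2162177 to 13891314, ependymal 254694 to 25088033 and astrocytic 156154 to 5853555, so low genes are least precise in astrocytes and ependymal cells. The ratio on unscaled CPM used a pseudocount of 0.1 CPM.

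The 9 genes and all lists were chosen with earlier results of these data known. All 9 are named; of the pathway list, up to 12 called genes per comparison with the largest change and a mean of at least 5 CPM, of which some are given, and up to 2 uncalled genes per group with the highest mean; some are not reported here. Likeness named the genes with the highest Pearson r among those of at least 5 CPM in a cluster. Promoters are from RefSeq's table for GRCm38.p6. Starts of the 9 genes on chromosome 18 were left out, so Malt1 was not searched.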

Additional observations from a re-analysis of the deposited data

Results flagged for a closer look

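In 60 groups of 4 libraries, 6 single values lay far from the other 3 by Dixon's test at the 95% level, where chance gives about 1 in 20. In microglia, Vav1 was 202 CPM in Clec7aKO replicate 4, with the other Clec7aKO libraries at 118 to 125 CPM. Clec7aKO replicate 1 was high in 3 classes: Ptpn6 was 3.95 CPM in its endothelial cells (others 1.23 to 1.68), Ptpn6 was 7.04 CPM in its ependymal cells (others 0.732 to 0.910) and Syk was 6.26 CPM in its astrocytes (others 1.51 to 1.76). The 12 microglial markers summed to 532 CPM in that library's endothelial cells (others 169 to 305), 905 in its ependymal cells (others 278 to 378) and 2370.0 in its astrocytes (others 603 to 1072); their part in these values was not tested. Bcl10 was 39.1 CPM in ependymal cells of Clec7aKO replicate 4 (others 29.6 to 30.8) and 70.3 CPM in astrocytes of SOD1_Clec7aKO replicate 4 (others 32.4 to 38.9).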

How the results depend on the processing

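Of 4613 values under alternatives, 4467 stayed on the same side of the threshold (or within the spread), 35 lost a call or were counts of calls that fell (by over 1.5 times or to 0), 85 gained a call or were such counts that rose (likewise, or from 0), 25 moved and 1 reversed. Of the 4467, 184 changed sign without being called in either fit, 72 of them for the 9 genes in microglia. In microglia Malt1 was called in both transgene comparisons under every alternative run, at 1.54 to 2.82 in SOD1 against nTg and 1.51 to 2.64 in SOD1_Clec7aKO against Clec7aKO. In SOD1 against nTg the count of the 9 genes called went from 1 to 2 with DESeq2 and with only the 5 clusters that had microglial markers among their leading genes (both add Bcl10), and to 3 without the libraries numbered 13 and above (adding Bcl10 and Card9). The last setting, and those without the Gpnmb-led or the shallow cluster, were chosen after seeing the data. The pathway list went from 32 called to 21 with Xist as a covariate and 20 in those 5 clusters; leaving out 1 library gave 21 to 33, with 21 without nTg replicate 1 or SOD1 replicate 2.

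In endothelial cells the 1 call in SOD1 against nTg became 2 with DESeq2, 3 with no filter on low counts, 0 with the Xist covariate, 4 with doublets kept and 1 to 2 when 1 library was left out. In ependymal cells the 0 calls became 3 with no filter and 6 with doublets kept, where Malt1 turned to 1.40. In astrocytes the 7 calls became 3 with the Xist covariate and 5 to 8 when 1 library was left out. The share of all genes called under each alternative is not given here. None of these counts, nor those above, is therefore read as particular to the genes counted. Same-numbered libraries did not pair (19 pairs, r from -0.32 to 0.51); a replicate block gave 3 calls in endothelial cells and changed no count of the 9 genes in microglia.

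Without thinning, the share of microglia with a UMI was 52.0% for Syk, 19.7% for Card9, 70.7% for Bcl10, 37.1% for Malt1, 54.7% for Plcg2, 77.1% for Prkcd, 69.9% for Vav1, 0.285% for Vav3 and 80.5% for Ptpn6. With doublets kept, endothelial levels were 10.3 CPM for Syk, 1.58 for Card9, 41.5 for Malt1, 13.5 for Plcg2, 34.7 for Prkcd, 13.3 for Vav1 and 23.6 for Ptpn6. Ependymal levels were then 6.32 CPM for Syk, 1.05 for Card9, 41.4 for Bcl10, 20.3 for Malt1, 7.48 for Plcg2, 16.4 for Prkcd, 10.2 for Vav1, 0.346 for Vav3 and 19.3 for Ptpn6. Vav3 in microglia rests on 0 to 41 UMIs per library, and no change in it passed the threshold there. The smallest change that could be detected at this depth was not measured.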
